A study of Homo sapiens with 36 samples.

Results

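The genes of 8 large histone lysine methyltransferases, KMT2A, KMT2B, KMT2C, KMT2D, SETD1A, SETD1B, SETD2 and NSD1, were followed through 18 lists of PAR-CLIP clusters for the RNA-binding proteins SCAF4 and SCAF8. The genes were chosen by name, and a cluster was counted for a gene when its midpoint lay on the gene's strand between its annotated ends. By this rule 864 of the 278185 clusters in the 18 lists lay in these genes, 692 of them in the 6 lists of SCAF4 IP and SCAF8 IP, 29 in the 3 lists of control IP and 143 in the 9 lists of inputs. PAR-CLIP marks RNA that was crosslinked to a protein: cells take up 4-thiouridine (4SU), UV light at 365 nm links it to bound proteins, and the link leaves T→C changes in the reads. A cluster is a stretch of such reads, and its number in a list depends on the depth of the library, which the lists do not give.

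All samples came from HEK293 Flp-in T-Rex cells, a human embryonic kidney line, with no gene knocked out. SCAF4 IP and SCAF8 IP were FLAG pull-outs from the lines HEK293 Flp-in T-Rex FLAG-SCAF4 and HEK293 Flp-in T-Rex FLAG-SCAF8, in which doxycycline overnight induced the tagged protein. Control IP was the same pull-out from the parental line, which has no FLAG-tagged protein. The sources differ on doxycycline: the labels give 100 ng/mL for the FLAG lines only, whereas the study's methods give a higher dose and include the parental cells. Each input was RNA of the extract before its pull-out. Cells of every group had 100 μM 4SU overnight, 500 μM 4SU for 2 h and 2000 J/m2 of UV light. Each group had 3 replicates, and each list joined the soluble and the chromatin fraction of 1 replicate. The lists held 18991, 54404 and 33962 clusters in SCAF4 IP and 25189, 18287 and 41502 in SCAF8 IP, against 9638, 2314 and 1621 in control IP and 4567 to 12493 in the inputs. Values are therefore given per 10000 clusters of a list, in the order of replicates 1 to 3, unless a number of clusters is named. The lists say where RNA was bound and not how much transcript of a gene was present, and a gene with more RNA can give more clusters in every list.

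The enzymes add methyl groups to histone H3. KMT2A, KMT2B, KMT2C, KMT2D, SETD1A and SETD1B work in COMPASS complexes that methylate lysine 4, a mark of promoters and enhancers. SETD2 travels with elongating RNAPII and trimethylates lysine 36 in gene bodies, and NSD1 dimethylates the same residue. Their transcripts are long and hold some unusually long exons, and several of the genes are mutated in developmental disorders and cancer. SCAF4 and SCAF8 bind the phosphorylated C-terminal domain of RNAPII as well as nascent RNA.

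The bound stretches are best seen in the RNA itself. Overlapping clusters of the 6 SCAF IP lists were merged into regions, and for each gene the region found in the most lists is shown, with ties going to fewer input and control IP lists and then to the longer region, together with KMT2A exon 25 and KMT2D exon 8, which all 3 control IP lists also held. Each window is centered on the region, cut to at most 200 nt, and read 5′ to 3′ along the transcript from hg38 (GRCh38). Exons are counted from the 5′ end of the isoform of each gene with the most exonic bases in GENCODE 44. In the first 7 windows, which lie wholly in coding sequence, capitals mark T, the base that stands for uridine and so for the sites where 4SU can enter. The regions within KMT2A exon 4, SETD1A exon 8 and NSD1 exon 7 come first because each was in all 6 SCAF IP lists and overlapped no cluster of an input or control IP, although other stretches of the first 2 of these exons did.
KMT2A exon 4, chr11:118473928-118474063, plus strand: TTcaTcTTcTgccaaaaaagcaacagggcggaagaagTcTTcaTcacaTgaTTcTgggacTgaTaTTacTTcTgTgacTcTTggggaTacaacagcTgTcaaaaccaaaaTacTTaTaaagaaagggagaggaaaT
SETD1A exon 8, chr16:30966189-30966386, plus strand: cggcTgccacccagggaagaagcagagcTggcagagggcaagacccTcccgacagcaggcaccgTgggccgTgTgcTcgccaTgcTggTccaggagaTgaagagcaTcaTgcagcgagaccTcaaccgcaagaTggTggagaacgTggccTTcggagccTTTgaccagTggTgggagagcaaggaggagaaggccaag
NSD1 exon 7, chr5:177238278-177238477, plus strand: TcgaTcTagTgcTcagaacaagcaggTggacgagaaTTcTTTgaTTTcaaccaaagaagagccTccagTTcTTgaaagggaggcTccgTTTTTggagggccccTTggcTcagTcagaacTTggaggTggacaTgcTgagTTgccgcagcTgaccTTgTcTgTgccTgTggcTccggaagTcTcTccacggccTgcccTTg
KMT2D exon 49, chr12:49026439-49026638, minus strand: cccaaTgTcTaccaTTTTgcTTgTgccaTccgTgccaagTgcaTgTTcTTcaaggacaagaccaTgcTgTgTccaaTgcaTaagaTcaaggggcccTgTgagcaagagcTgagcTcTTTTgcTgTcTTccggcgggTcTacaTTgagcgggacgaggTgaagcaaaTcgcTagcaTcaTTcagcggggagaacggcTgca
KMT2C exon 43, chr7:152163223-152163422, minus strand: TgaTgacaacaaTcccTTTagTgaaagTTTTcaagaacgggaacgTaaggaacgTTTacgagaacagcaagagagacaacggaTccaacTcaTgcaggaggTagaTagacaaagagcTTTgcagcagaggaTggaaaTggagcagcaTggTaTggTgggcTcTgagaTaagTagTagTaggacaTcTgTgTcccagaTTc
SETD1B exon 11, chr12:121819612-121819811, plus strand: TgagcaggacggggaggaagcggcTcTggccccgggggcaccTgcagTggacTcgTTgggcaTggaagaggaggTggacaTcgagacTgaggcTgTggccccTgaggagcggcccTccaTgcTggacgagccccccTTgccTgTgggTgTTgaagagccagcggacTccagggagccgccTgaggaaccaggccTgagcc
SETD2 exon 12, chr3:47083950-47084149, minus strand: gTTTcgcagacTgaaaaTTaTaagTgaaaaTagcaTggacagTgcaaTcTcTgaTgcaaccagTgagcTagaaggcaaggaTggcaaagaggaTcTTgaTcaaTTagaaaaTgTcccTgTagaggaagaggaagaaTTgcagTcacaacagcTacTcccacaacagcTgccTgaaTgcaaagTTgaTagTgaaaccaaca
In the next 3 windows the bound region crosses the edges of a short exon, and capitals mark the exon while lower case marks the introns beside it.
KMT2B exon 11, chr19:35725188-35725374, plus strand: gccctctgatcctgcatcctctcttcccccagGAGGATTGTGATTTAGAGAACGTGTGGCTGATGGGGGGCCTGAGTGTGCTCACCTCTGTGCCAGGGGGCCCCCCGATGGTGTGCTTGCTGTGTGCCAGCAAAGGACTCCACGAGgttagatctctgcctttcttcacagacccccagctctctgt
KMT2A exon 25, chr11:118499784-118499953, plus strand: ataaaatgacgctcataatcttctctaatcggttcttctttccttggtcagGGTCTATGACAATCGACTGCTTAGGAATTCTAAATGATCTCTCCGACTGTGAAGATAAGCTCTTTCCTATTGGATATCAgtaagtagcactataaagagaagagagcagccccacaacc
KMT2D exon 8, chr12:49053202-49053342, minus strand: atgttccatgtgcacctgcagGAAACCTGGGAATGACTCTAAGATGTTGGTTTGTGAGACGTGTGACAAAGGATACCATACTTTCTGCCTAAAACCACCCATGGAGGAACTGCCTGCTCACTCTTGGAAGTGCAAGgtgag

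SCAF4 IP and SCAF8 IP held clusters in all 8 genes, with the most in KMT2D (106) for SCAF4 IP and in KMT2A (57) for SCAF8 IP, and the fewest in SETD1B for both. Summed over the 8 genes, SCAF4 IP held 39.0, 38.6 and 48.0 clusters per 10000, a mean of 41.9 ± 5.32 (SD, n = 3), and SCAF8 IP held 25.4, 34.5 and 28.4, a mean of 29.4 ± 4.60 (SD, n = 3). Control IP had 23.9, 17.3 and 12.3, and the inputs of the FLAG-SCAF4, FLAG-SCAF8 and parental lines had means of 22.5 ± 2.50, 18.3 ± 7.57 and 16.4 ± 7.15 (SD, n = 3 each). All 3 SCAF4 IP lists lay above the 12 lists of control IP and inputs, whereas the lowest SCAF8 IP list, at 25.4, lay below the highest FLAG-SCAF8 input, at 26.1. By the number of clusters in the 6 SCAF IP lists, KMT2D ranked 65th with 156 and KMT2A 122nd with 125 among the 9709 protein-coding genes with a cluster, and SETD1B ranked 4637th with 9, where the median gene also had 9. Per kb of gene body the order was different: KMT2B had 4.59 clusters, KMT2D 3.73, SETD1A 2.89 and KMT2A 1.38. SETD2, NSD1, SETD1B and KMT2C had 0.460, 0.410, 0.314 and 0.298, nearer the median of 0.266 over all those genes.

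KMT2A and KMT2B, the founding MLL enzymes, which bind menin and act at promoters, behaved differently from each other. KMT2A had 4.21, 6.25 and 7.66 clusters per 10000 in SCAF4 IP and 4.76, 8.75 and 6.99 in SCAF8 IP. Its values in control IP, 5.19, 4.32 and 6.17, lay within the same range, though the last 2 rest on 1 cluster each. Its own inputs had 2.56, 0 and 2.09 in the FLAG-SCAF4 line and 2.19, 10.6 and 8.88 in the FLAG-SCAF8 line, so that SCAF4 IP lay above its own input in all 3 pairs and SCAF8 IP in 1 of 3. KMT2B had 4.74, 6.07 and 8.24 in SCAF4 IP and 2.38, 4.37 and 2.89 in SCAF8 IP. Its own inputs had 0.854, 5.87 and 0 in the FLAG-SCAF4 line and 1.09, 0 and 0 in the FLAG-SCAF8 line. Each of the 6 SCAF IP lists was above its own input for KMT2B, though the 5.87 of replicate 2, which rests on 3 clusters, was close to the 6.07 of its IP.

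KMT2C and KMT2D, which monomethylate lysine 4 at enhancers, also parted. KMT2C had 4.74, 5.33 and 6.18 in SCAF4 IP and 3.97, 2.73 and 3.86 in SCAF8 IP. Its own inputs had 2.56, 1.96 and 2.09 in the FLAG-SCAF4 line and 3.28, 0 and 2.22 in the FLAG-SCAF8 line, and control IP had 1.04, 0 and 0. Inputs of the parental line reached 4.00, 8.76 and 1.97, so the highest value of KMT2C in any list was in an input that is no partner of a SCAF IP. KMT2D had 8.95, 9.37 and 11.2 in SCAF4 IP and 3.97, 6.56 and 6.75 in SCAF8 IP. In its own inputs it had 5.98, 9.78 and 12.5 in the FLAG-SCAF4 line and 1.09, 6.76 and 2.22 in the FLAG-SCAF8 line, and control IP had 7.26, 8.64 and 6.17. The ranges of KMT2D in control IP and in the inputs thus overlapped those of the SCAF IP lists. In control IP, its values in replicates 2 and 3 rest on 2 and 1 clusters.

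SETD1A and SETD1B, the SET1 enzymes that trimethylate lysine 4 at active promoters, differed most in number. SETD1A had 4.74, 4.04 and 5.89 in SCAF4 IP and 2.78, 5.47 and 2.65 in SCAF8 IP, against 0.854, 1.96 and 0 in the FLAG-SCAF4 inputs and 0, 3.86 and 2.22 in the FLAG-SCAF8 inputs. Every SCAF IP list was above its own input for SETD1A. SETD1B had 1, 3 and 3 clusters in SCAF4 IP and 0, 2 and 0 in SCAF8 IP, and none in the 12 lists of control IP and inputs. A count of 0 allows up to 2.40 to 6.57 clusters per 10000 in an input and 3.11, 13.0 and 18.5 in control IP, all above the 0.654 ± 0.199 (SD, n = 3) of SCAF4 IP, and no fold is given for SETD1B. These limits cover counting error only.

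For the lysine 36 enzymes, SETD2 had 4.21, 3.86 and 5.01 in SCAF4 IP and 2.38, 2.19 and 2.89 in SCAF8 IP. Its inputs were at 3.41, 5.87 and 4.17 in the FLAG-SCAF4 line and 2.19, 1.93 and 2.22 in the FLAG-SCAF8 line, and overlapped the IP of the same line in both cases. NSD1 had 6.85, 3.12 and 2.94 in SCAF4 IP and 5.16, 3.28 and 2.41 in SCAF8 IP. Its own inputs had 5.12, 0 and 0 in the FLAG-SCAF4 line and 1.09, 2.90 and 0 in the FLAG-SCAF8 line. All 6 SCAF IP lists were above their own input for NSD1.

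**Figure D1:**
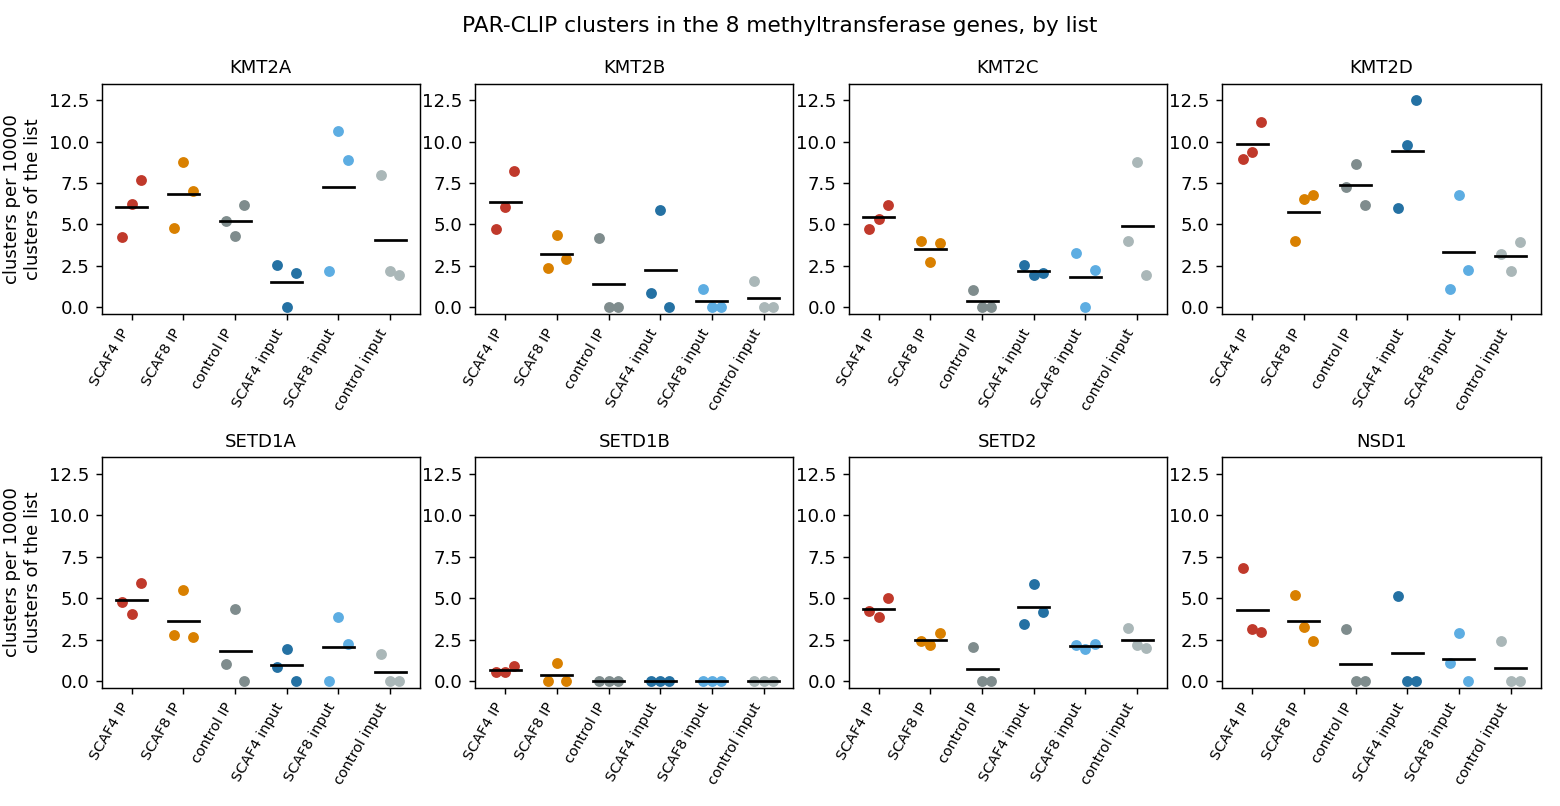
Clusters per 10000 clusters of a list (y axis) for each of the 8 genes, by group (x axis). Each point is 1 list and each black line the mean of 3 lists. KMT2B, SETD1A and NSD1 stood higher in the SCAF IP lists than in most inputs, whereas KMT2D and SETD2 reached the same level in the inputs of the FLAG-SCAF4 line.

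Whether a gene held more clusters in SCAF IP than expected from the RNA in the extract was asked by setting the 6 SCAF IP lists against their 6 own inputs. KMT2C was the only member that passed the test, with 4.47 against 2.02 clusters per 10000, a 2.22-fold higher mean (exact permutation test of the lists, two-sided p = 0.00433, Benjamini-Hochberg adjusted p = 0.0413 over 6872 genes). Over all genes tested, 450 or 6.55% were called higher, and 1 of 8 members was. SETD1A had a 2.88-fold higher mean (adjusted p = 0.0648 by the exact test), KMT2B 3.67-fold (adjusted p = 0.0922) and NSD1 2.61-fold (adjusted p = 0.144). KMT2A at 1.47-fold, KMT2D at 1.22-fold and SETD2 at 1.04-fold had adjusted p-values of 0.471, 0.677 and 0.947 in the same exact test, and SETD1B, at 0.509 against 0, had 0.153. All 8 members had a higher mean in SCAF IP, as did 68.5% of all genes tested. The median difference was 2.25 clusters per 10000 over the members and 0.258 over all genes. Such a difference can be larger in a gene with more clusters. All members but SETD1B held 68 to 156 in the SCAF IP lists, and the median gene with a cluster held 9. Since each input came from the extract of an IP, IP and input of the same number were taken as pairs. IP was above input in all 6 pairs for KMT2B, KMT2C, SETD1A and NSD1, where 11.6% of all genes tested did so. That pattern needs a cluster in every SCAF IP list, which favors genes with many clusters. Within these pairs the smallest two-sided p is 0.031, and the call of KMT2C was lost (exact test, adjusted p = 0.179). The call was also lost without any single replicate, where the exact test gave adjusted p-values of 0.112 to 0.288 and no gene of the table was called.

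Control IP served to ask what the FLAG pull-out brings down without a tagged protein. No gene was called among 6710 tested (exact permutation test over 84 splits, smallest two-sided p 0.0119), with 1699 at an unadjusted p under 0.05. KMT2C and SETD2 lay above control IP with no overlap of the lists, which held for 16.4% of all genes tested. Their means were 4.47 against 0.346 for KMT2C (exact test, adjusted p = 0.0857) and 3.42 against 0.692 for SETD2 (exact test, adjusted p = 0.122). KMT2A and KMT2D, with means of 6.44 against 5.23 and 7.80 against 7.36, had the ratios closest to 1 among the 7 members with a cluster in control IP. Control IP replicates 2 and 3 held only 4 and 2 clusters of the 8 genes, and a count of 0 there allows more than any member reached in SCAF IP, so those lists carry little weight.

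SCAF4 IP had the higher mean for 7 of 8 members, all but KMT2A. For KMT2B, KMT2C, KMT2D and SETD2 the 3 SCAF4 IP lists all lay above the 3 SCAF8 IP lists, as for 10.4% of all genes tested. The ratios of the means were 1.97, 1.54, 1.71 and 1.75, in that order, and 0.884 for KMT2A. With 3 lists against 3 the exact permutation test cannot give a two-sided p below 0.1, so none of the 6648 genes tested could pass. The inputs of the lines also differed for some of these genes: KMT2D had 9.42 ± 3.29 in the FLAG-SCAF4 inputs and 3.36 ± 3.00 in the FLAG-SCAF8 inputs (SD, n = 3), and SETD2 had 4.48 and 2.11. How much of the difference between both IPs lies in the RNA of the lines was not tested.

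Within the genes, clusters sat in coding exons. Of the 692 SCAF IP clusters, 228 (32.9%) had their midpoint in coding sequence of an exon of at least 1 kb and 335 (48.4%) in coding sequence of a shorter exon, against 8.23% and 36.7% for the clusters in all protein-coding genes. Introns, which make up most of each gene, held 78 (11.3%, against 30.7% for all genes), 3′ UTRs 35 (5.06%, against 16.2%) and 5′ UTRs 16. In the 9 inputs 62 of 143 member clusters (43.4%) were in coding sequence of long exons, 40 (28.0%) in coding sequence of shorter ones and 31 (21.7%) in introns. The shares of coding sequence covered by at least 1 SCAF IP list were 62.4% in SETD1A, 61.3% in KMT2B and 58.5% in KMT2D, between 50.5% and 51.8% in KMT2A, SETD2 and NSD1, 27.2% in KMT2C and 11.3% in SETD1B.

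**Figure D2:**
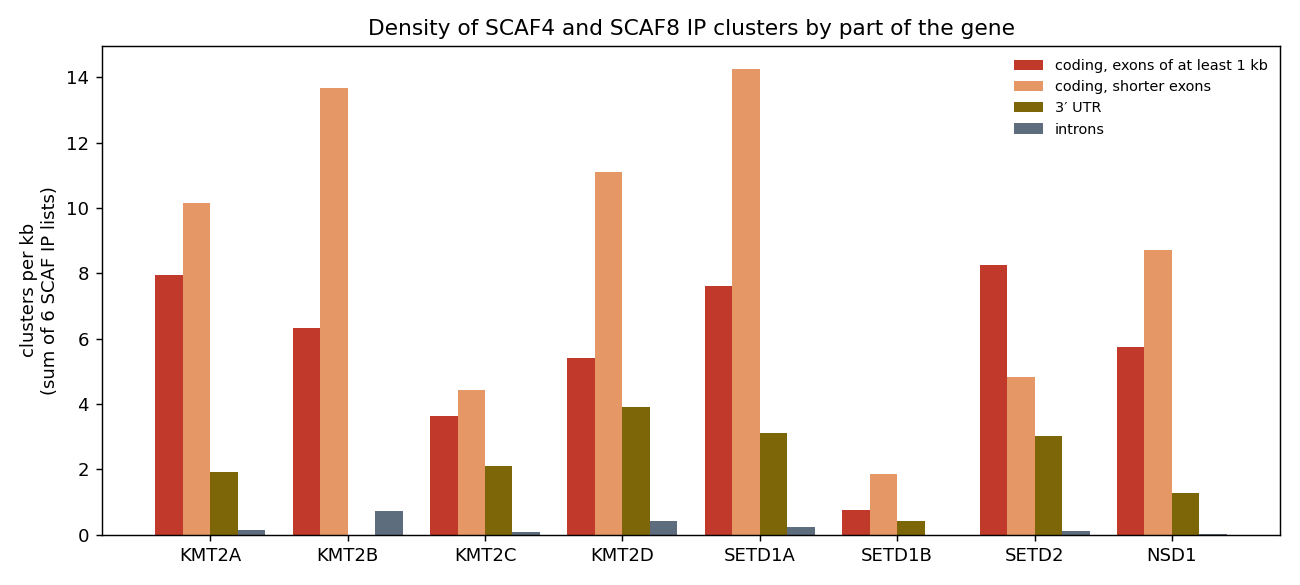
Clusters per kb (y axis), summed over the 6 SCAF IP lists, for coding sequence in exons of at least 1 kb, coding sequence in shorter exons, 3′ UTRs and introns of each gene (x axis). Shorter coding exons held the densest clusters in 7 of 8 genes, up to 14.2 per kb in SETD1A, and SETD2 was the exception, with 8.24 per kb in its long exon and 4.81 in the others.

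Exons were denser in clusters than introns in all 6 SCAF IP lists for 7 of 8 members, a pattern of 45.6% of the 6161 genes tested. That pattern needs a cluster in every list, and the median gene with a cluster had 9 over the 6 lists. By the mean over lists, exons were denser in 96.6% of the genes tested. In clusters per kb and per 10000 clusters, exons of SETD1A had 0.610 and its introns 0.0157, KMT2B had 0.526 and 0.0260, and KMT2A had 0.358 and 0.00609. NSD1 showed the largest ratio, with 0.283 in exons and 0.00178 in introns. SETD1B had no cluster in an intron and an exon cluster in 4 of 6 lists. With 6 lists the exact sign-flip test cannot give a two-sided p under 0.031, and no gene passed after adjustment over all genes (adjusted p = 0.0677 for the 7 members, exact test), with 2845 genes at an unadjusted p under 0.05.

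The 8 genes hold 25 exons of at least 1 kb, and 24 of them had a SCAF IP cluster, 10 in all 6 lists. Long exons make up 57.8% of the exon length of the 8 isoforms and held 268 of the 614 exon clusters (43.6%). Their density was below that of the other exons of the same gene in all 6 SCAF IP lists for KMT2A, KMT2B, KMT2C, KMT2D and NSD1, as in 27.9% of the 4224 genes tested. By the mean over lists, long exons were denser than other exons in only 22.6% of these 4224 genes. SETD2 alone among the members had denser clusters in its long exon in all 6 lists, 0.440 against 0.207 clusters per kb and per 10000, where 3.93% of all genes tested did so (exact sign-flip test, two-sided p = 0.031, the smallest it allows, adjusted p = 0.0982). No gene passed this exact test after adjustment, with 1344 at an unadjusted p under 0.05. The 9 inputs leaned the same way for SETD2, with 17 clusters in coding sequence of its long exon and 1 in that of its other exons. The last exons of KMT2A, KMT2C, KMT2D, SETD1B and NSD1 are mostly 3′ UTR. With coding parts of exons only, an alternative chosen after seeing the data, the difference moved from −0.23 to −0.10 clusters per kb and per 10000 in KMT2A and from −0.24 to −0.13 in NSD1, and KMT2A, KMT2C and NSD1 were no longer lower in all 6 lists (exact sign-flip test, unadjusted p = 0.0625, 0.188 and 0.219).

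Single long exons carried many of the clusters. KMT2A exon 4 (2654 nt) had 38 clusters in the 6 SCAF IP lists, 2 in control IP and 7 in 4 of 9 inputs, whereas KMT2A exon 28 (4249 nt) had 18, with 1 in control IP and 8 in 4 inputs. SETD2 exon 3, which at 4367 nt makes up 51.1% of the isoform, had 36 clusters in the SCAF IP lists, and it was also bound in 9 of 9 inputs, with 17 clusters, and held 2 of control IP. NSD1 exon 5 (2560 nt) had 24 in the SCAF IP lists, 1 in control IP and 7 in 4 inputs. In KMT2D the long exons 12, 35 and 49 were each bound in 6 of 6 lists, with 14, 15 and 9 clusters. Exon 35 also had 11 clusters in 7 of 9 inputs and 2 in control IP, exon 12 had 4 in 4 inputs and 2 in control IP, and exon 49 had 2 in 1 input. KMT2D exon 40, at 2790 nt, had 8 in 3 SCAF IP lists and exon 11, at 1539 nt, had 2 in 1, and both had none in inputs or control IP. SETD1B exon 12 (1260 nt) was the only long exon with no cluster. Among shorter exons, 12 were bound in all 6 lists, among them KMT2A exon 25 (79 nt), KMT2B exon 11 (114 nt) and NSD1 exon 7 (271 nt).

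**Figure D3:**
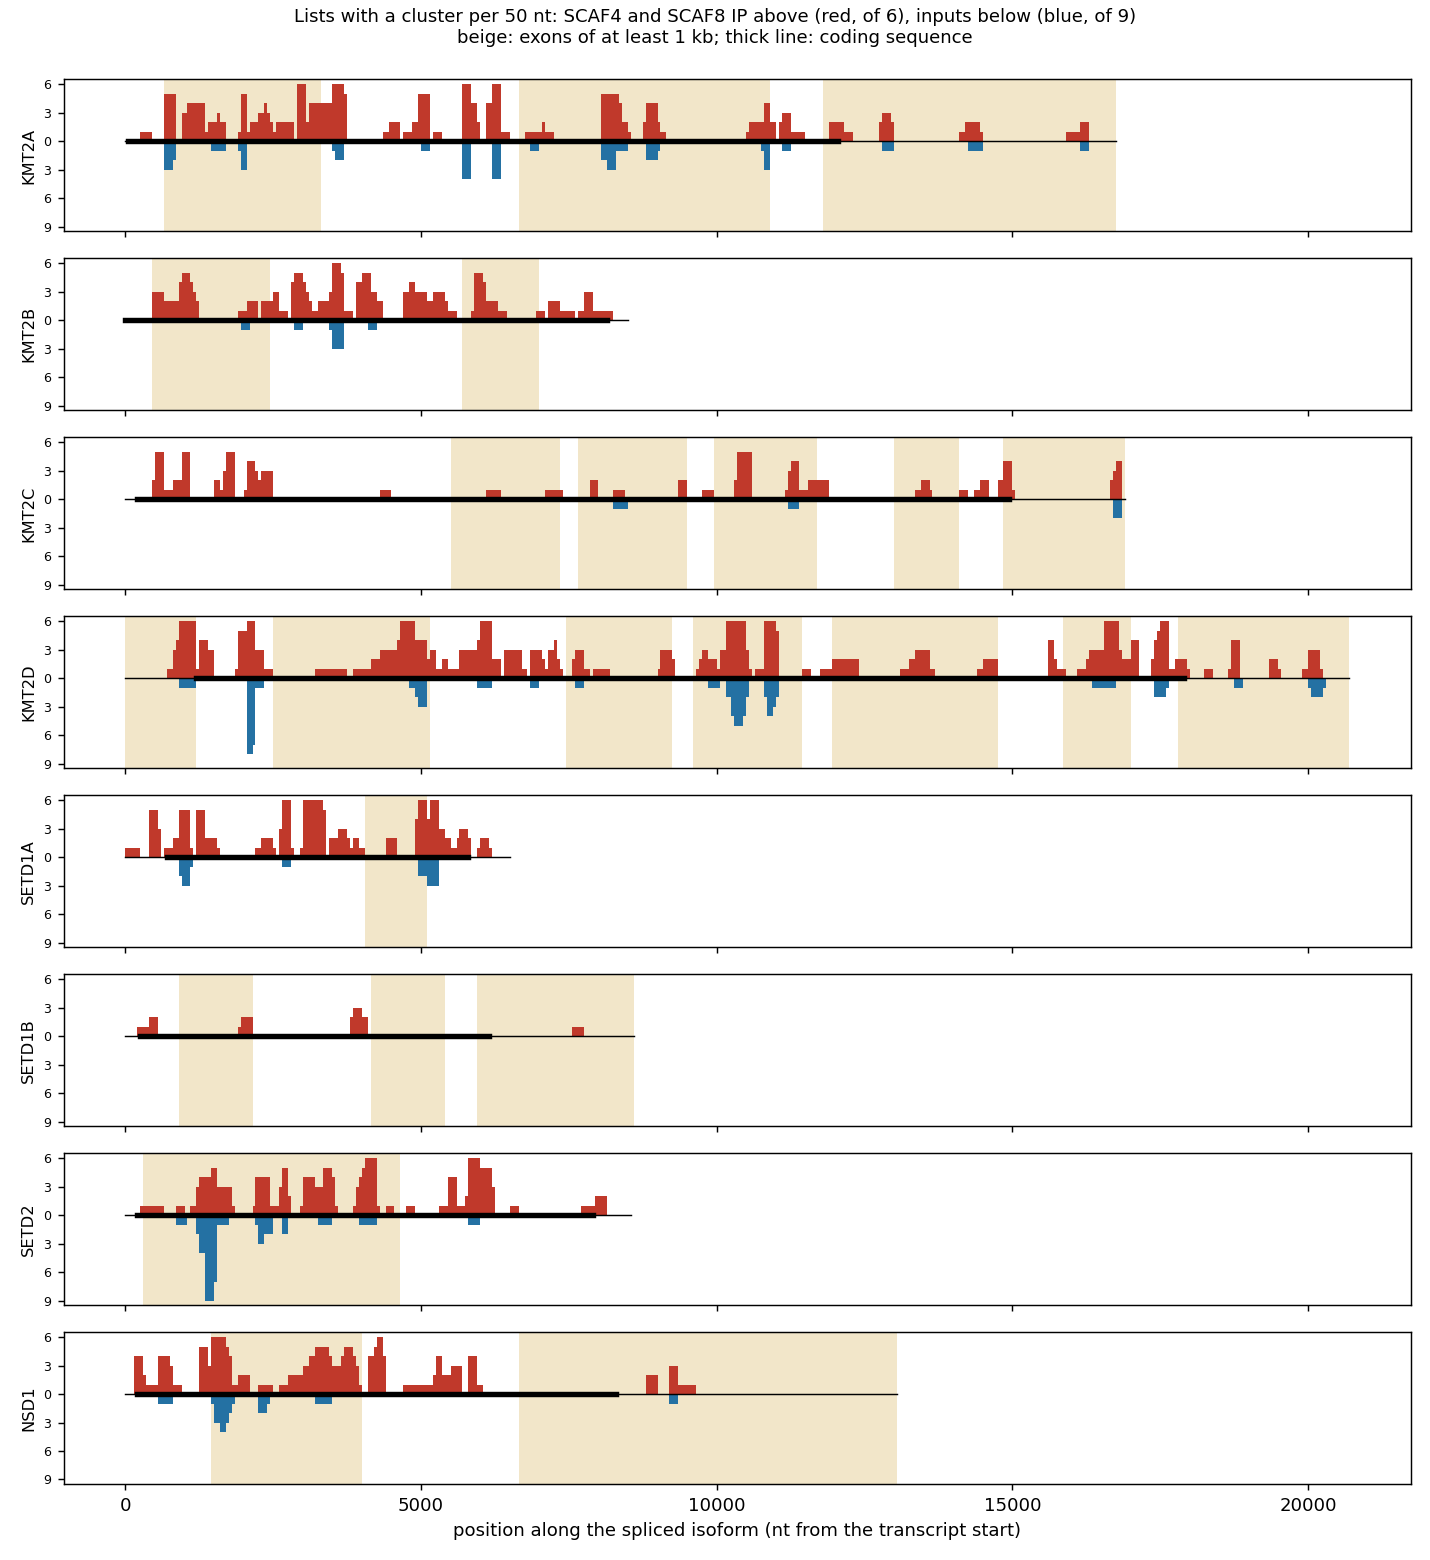
Number of SCAF IP lists (red, above, of 6) and input lists (blue, below, of 9) with a cluster in each 50 nt along the spliced isoform of each gene (x axis, nt from the transcript start). Beige marks exons of at least 1 kb and the thick line the coding sequence. Bound stretches lay along the coding sequence, KMT2D exon 8 and SETD2 exon 3 stood out in the inputs with 8 and 9 of 9 lists, and SETD1B was nearly empty.

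KMT2A and KMT2B have 37 exons each in these isoforms, and 14 exons of the same number also have the same length. Both genes had a SCAF IP cluster in 7 of these 14 pairs, KMT2B alone in 3, and neither gene in 4. Exon 25, of 79 nt, was bound in 6 of 6 SCAF IP lists in KMT2A and in 3 in KMT2B, and exon 11, of 114 nt, in 1 and in 6. Exon 22, of 138 nt, was bound in 4 lists in each gene.

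Clusters that ran over an exon edge, with at least 10 nt on each side, made up 159 of the 692 SCAF IP clusters in the 8 genes (23.0%). Their share was between 14.9% and 29.0% in the 6 lists, against 16.8% to 24.1% of the clusters in all protein-coding genes. The inputs had 12 of 143 (8.39%) and control IP 5 of 29 (17.2%). Of the 159, 95 crossed a 5′ splice site and 92 a 3′ splice site, 28 of them both, which is possible where the exon is shorter than the cluster. KMT2B had the highest share, 39 of 96 (40.6%), followed by SETD1A with 30.4% and KMT2D with 28.2%. SETD2, with 36 of its 68 clusters in exon 3, had 0 of 68 over an edge. This would allow a share of up to 4.41% if the clusters were independent. The gene held only 24 merged regions, 13 of them in at least 2 lists, so the true limit is higher.

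**Figure D4:**
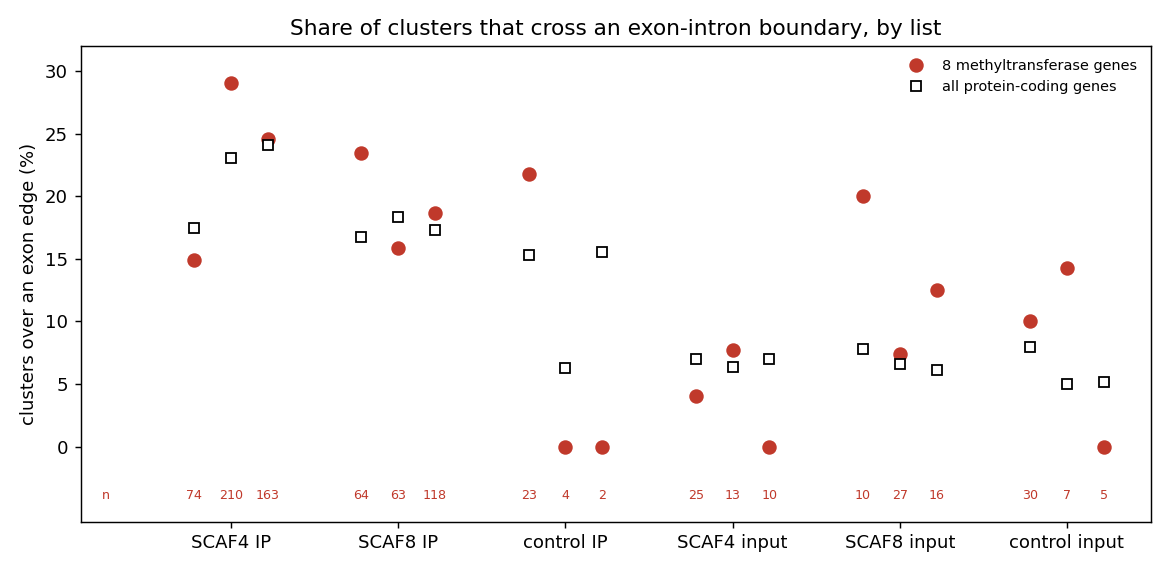
Share of clusters that cross an exon edge by at least 10 nt on each side (y axis, percent) in each of the 18 lists (x axis, by group), for the 8 genes (red circles, with the number of clusters below) and for all protein-coding genes (open squares). The 6 SCAF IP lists lay between 14.9% and 29.0% for the 8 genes, and control IP and inputs rest on 2 to 30 clusters each.

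Merging the SCAF IP clusters gave 237 regions in the 8 genes, with a median length of 174 nt. Of these, 166 were in at least 2 lists and 24 in all 6, and 126 held clusters of both SCAF4 IP and SCAF8 IP, 98 of SCAF4 IP alone and 13 of SCAF8 IP alone. The 24 regions in all 6 lists lay in KMT2D (8), KMT2A (5), SETD1A (5), NSD1 (3), SETD2 (2) and KMT2B (1), with 23 midpoints in coding sequence and the other in the 5′ UTR of KMT2D. They were also the regions most often seen before the pull-out: 20 of 24 (83.3%) overlapped a cluster of an input and 11 one of control IP, whereas 5 of 71 regions in a single list (7.04%) overlapped an input. KMT2D exon 8, shown above with its exon in capitals, was bound in 8 of 9 inputs and 3 of 3 control IP lists, and KMT2A exon 25 in 4 inputs and 3 control IP lists. Only the regions of KMT2A exon 4, SETD1A exon 8 and NSD1 exon 7, printed first above, were in all 6 SCAF IP lists and in no other list. Between these extremes lay regions such as KMT2C exon 43, in 5 of 6 SCAF IP lists and in no input or control IP list, and SETD1B exon 11, in 3 of 6 and in no other.

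**Figure D5:**
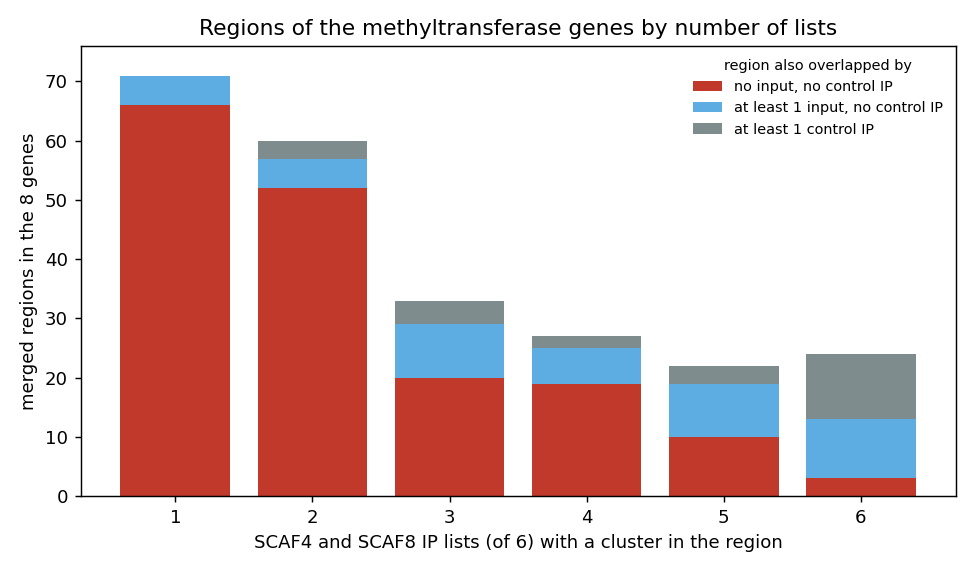
Number of merged regions in the 8 genes (y axis) by the number of SCAF IP lists that hold them (x axis). Colors tell whether the region was overlapped by no input or control IP cluster, by an input alone, or by a control IP cluster. Of 24 regions in all 6 lists 3 were free of both, against 66 of 71 in 1 list.

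Introns held few shared regions. Of 8 regions with an intronic midpoint in at least 3 SCAF IP lists, 5 touched no exon of the isoform. In the first intron of KMT2C, chr7:152434537-152434697 was bound in 5 SCAF IP lists and in 6 inputs, and in the second intron of KMT2A, chr11:118444941-118445051 was bound in 4 SCAF IP lists and 4 inputs. A region in the second intron of NSD1, chr5:177169356-177169453, was in 4 SCAF IP lists and in no input or control IP list. Because the study is about early polyA sites, regions were also set against annotated ends of shorter coding isoforms, at least 2000 nt before the end of the isoform used. There were 21 such ends in 6 genes, and 3 of them, 1 in KMT2A and 2 in KMT2D, had a region of at least 2 lists within 200 nt upstream. In each case the distance was 0 nt, so the region reached the end itself and did not lie apart from it. The 2 ends in KMT2D, at 49021723 and 49021780, are close neighbors. All 3 ends lay in the last exon, and no end in an intron had such a region within 200 nt on either side.

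Filters modeled on the study's methods were then applied to the pooled regions. The methods do not say how input clusters per 10 kb of a gene were counted. Merged regions of all 9 inputs were used here, and another way of counting could keep other genes. Of 166 regions in at least 2 SCAF IP lists, 138 overlapped clusters of no more than 1 input. The filter on input density, at least 1 merged input region per 10 kb of gene, removed 4 of the 8 genes whole: KMT2A with 1.91, KMT2B with 2.01, KMT2D with 3.49 and SETD1A with 1.91 input regions per 10 kb. KMT2B and SETD1A passed this limit with 5 and 6 input regions, since both genes are short, while KMT2C, with 12 input regions over a longer gene, had 0.393 and stayed. After the removal of regions in control IP, 45 consensus regions were left, 21 in KMT2C, 12 in NSD1, 9 in SETD2 and 3 in SETD1B. Without the density filter there were 127, with 20 in KMT2A, 21 in KMT2B, 25 in KMT2D and 16 in SETD1A. When SCAF4 IP and SCAF8 IP were treated separately, each with at least 2 of 3 lists, 34 and 16 consensus regions were left.

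The median GC content of 100 nt around the midpoint was 52.5% over the 166 regions in at least 2 lists, 49.0% over 36464 such regions of all protein-coding genes and 53.0% over 657 windows tiled along the coding sequence of the 8 genes. By gene it ran from 40.0% in SETD2, whose coding sequence has 42.7%, to 65.0% in SETD1B, whose coding sequence has 64.7%. The letters CGG or CGA, searched in the 100 nt windows on the transcribed strand, were in 74.1% of the members' regions, 67.1% of all regions and 70.0% of the coding windows. The letters CCAGC as well as CCAGG, along with GCAGC as well as GCAGG, searched together, were in 47.6%, 43.4% and 55.3%, and CTCC or CACC in 59.6%, 48.8% and 70.2%. On the other strand the shares in the members' regions were 70.5%, 57.2% and 68.1%.

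Partners of these enzymes and other histone methyltransferases were set against the inputs in the same test. Of 15 COMPASS partners 14 were tested and 1 was called higher, BOD1L1, a partner of the SET1 enzymes, with 2.39 against 0.182 clusters per 10000 (exact permutation test, adjusted p = 0.0252). The scaffold subunits WDR5, RBBP5 and ASH2L had higher means in SCAF IP, with adjusted p-values of 0.0723, 0.266 and 0.0648 in the exact test. PAGR1 was lower, at 1.06 against 2.51 (exact test, adjusted p = 0.0648), and so were PSIP1 and WDR82. Of the 14 partners tested, 11 had a higher mean in SCAF IP. Of 22 other histone lysine methyltransferases 18 were tested and 3 were called higher, none lower, where 6.55% of all genes tested were called higher. NSD3, a relative of NSD1, had 3.18 against 1.48, KMT5A, which monomethylates lysine 20 of histone H4, had 1.43 against 0, and KMT2E, an MLL family member, had 1.56 against 0.161 (adjusted p-values by the exact test 0.0252, 0.0252 and 0.0413). Control IP had a mean of 2.40 for BOD1L1, the level of its SCAF IP mean, and 2.48 for NSD3. These means rest on 2 and 4 clusters over the 3 lists, so they are loose. Control IP held no cluster of KMT5A or KMT2E. As for KMT2C, none of these 4 genes was called within pairs of IP and input or without any single replicate. No gene of the table was called in those settings, so they cannot tell these 4 from other genes. The median difference was 0.591 over the partners and 0.537 over the other enzymes, against 0.258 over all genes tested. These differences also depend on how many clusters a gene holds. The genes whose profile over the 18 lists was most like the summed profile of the members were HNRNPUL2-BSCL2 (Pearson r = 0.855), SELENOO (0.844), SRGAP2B (0.839), VARS1 (0.824) and DUS3L (0.819), among 3393 genes with at least 20 clusters. The 18 lists share lines, replicates and depth, and r describes likeness only.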

How the data were processed

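PAR-CLIP was done in 3 lines of HEK293 cells, with 36 libraries of IP and input from soluble and chromatin fractions. Per the submitters' processing notes and the methods, the authors trimmed adaptors with cutadapt, aligned reads to GRCh38 with Bowtie2 2.2.9, which does not split reads over splice junctions, removed duplicates with Picard, merged both fractions and called clusters with PARalyzer above minimum numbers of reads and T→C transitions. The deposited lists give position, strand and a score between 0.501 and 1 that is not named, used only to rank clusters of a list in 1 alternative. They precede the authors' removal of background, hold no reads, and leave depth unknown. Replicate 1 was sequenced with longer reads than replicates 2 and 3. Starts were taken as 0-based.

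Clusters were assigned by midpoint and strand to protein-coding genes of GENCODE 44, which overlap in places: coding gene models on the same strand overlap KMT2A and KMT2D, and their clusters counted for both. Numbers were scaled to 10000 clusters of a list. Groups were compared by exact permutation of lists, and exons with introns or long with other exons by exact sign flips over lists, two-sided, with Benjamini-Hochberg adjustment over all protein-coding genes with at least 5 clusters. Scripts were tested on simulated data. Members and lists were chosen with earlier results of these data known. Named were all members, up to 8 genes of each of 2 lists (15 COMPASS partners, 22 other histone lysine methyltransferases) with the largest difference among adjusted p under 0.05, the 5 genes of the most similar profile, and regions in all 6 SCAF IP lists or the most lists of a gene. Single exons, intronic regions and subunits that did not pass were named after their values were seen. Input density used merged regions of 9 inputs in the gene and 2000 nt on each side. The labels give replicate numbers, and each IP was paired with the input of the same number, taken to come from the same extract. Deviations from group means correlated at 0.0328 to 0.339 (median 0.142) in the 6 such pairs and at −0.251 to 0.142 (median −0.0874) in 12 pairs of different numbers, over 6872 genes. The authors call the replicates biological, and p-values measure the spread between these lists. Alternatives were scaling, log2, overlap, score, isoform, covered length, limits, the replicate block and leaving out replicates. Python 3.11.15, numpy 2.4.6, pysam 0.24.0 and matplotlib 3.10.9 were used.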

Additional observations from a re-analysis of the deposited data

How the results depend on the processing

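The comparison with the inputs rested on few lists. Without scaling to 10000 clusters, 7 of 8 members and 3083 genes were called, a setting in which longer lists count for more. With only the better-scored clusters of each list (median score or more), 0 members and 0 genes were called, and with all genes of at least 1 cluster tested, 0 members. With the replicate block, that is, within pairs of IP and input, 0 members and 0 genes could be called, because the smallest p was 0.031 over 6872 genes, and the same numbers, 0 to 0, came from leaving out replicate 1, 2 or 3, where the smallest p was 0.0286. In the scaled settings KMT2C kept a higher mean in SCAF IP, by 1.36 to 2.96 clusters per 10000. On the log2 scale and by overlap, KMT2C was called as well. In the comparison of long with other exons, 2 members had a higher mean when long meant at least 500 nt, SETD2 and KMT2C. Consensus regions numbered 45 in the main setting and 47 without removal by control IP. They numbered 24 with at least 3 of 6 lists, 127 without the filter on input density and 31 to 46 without 1 replicate. No direction of a called value turned. Depth limits what can be said of small lists: control IP replicates 2 and 3 held 2314 and 1621 clusters in all.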
